A study of Mus musculus with 6 samples.

Results

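The genes described here encode the protein parts of the splicing machinery: the Sm and particle-specific proteins of the small nuclear ribonucleoproteins (snRNPs), the SF3A, SF3B, U2AF and PRPF factors, the SR proteins and the heterogeneous nuclear ribonucleoproteins (hnRNPs). They were chosen by gene symbol (names that begin with Srsf, Snrp, Snrnp, Sf3a, Sf3b, Prpf, Hnrnp or U2af), which found 75 of the 24062 genes in the count table, and 74 of them passed the filter on low counts and were tested. The exception was Snrpn, which is listed at 0 in all 6 libraries. By role they were 8 Sm core genes, 5 genes of U1 and U2 particle proteins, 3 minor spliceosome genes, 3 U2AF genes, 9 SF3A and SF3B genes, 16 tri-snRNP and PRPF genes, 11 SR protein genes and 20 hnRNP genes. In the knockout libraries 25 of the 74 were lower and 4 were higher, and the 4 included Prpf3 and Snrnp200, which encode tri-snRNP proteins. The share that was lower was close to that among all strongly expressed genes.

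Messenger RNA was measured in C57BL/6 bone marrow cells sorted for Kit, a receptor of blood stem and progenitor cells, from 3 mice with floxed Ints11 alleles and the Mx1Cre transgene (KO) and 3 wild-type littermates (WT). All cells were collected 4 days after poly(I:C), an RNA mimic that induces interferon and thereby the Mx1 promoter that drives Cre, so both groups share this treatment. The sources used here do not give whether the WT littermates carried Mx1Cre. Each library comes from 1 mouse and is named by genotype and mouse number.

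INTS11 is the endonuclease of Integrator, the complex that cuts the 3' ends of newly made small nuclear RNAs (snRNAs). Each snRNA of the major spliceosome except U6 is bound by a ring of Sm proteins and by proteins of its own particle. U1, U2 and the U4/U6.U5 tri-snRNP then assemble on most introns. SR proteins mostly promote and hnRNPs often oppose the use of nearby splice sites. The comparison sets the messenger RNAs for the proteins of these particles in KO cells beside those in WT cells.

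Library totals lay between 124074531 and 166860739 counts. Levels are in CPM (counts scaled to a fixed library total after TMM scaling) and are means ± SD over the 3 libraries of a group. A gene counts as higher or lower where its adjusted p is below 0.05 (edgeR's quasi-likelihood test, adjusted by Benjamini-Hochberg over the 15742 genes tested). Ints11, listed as Cpsf3l, fell from 73.8, 92.3 and 78.9 CPM in the WT libraries to 64.3, 58.3 and 60.2 CPM in the KO libraries (log2 change -0.42 ± 0.10 SE, adjusted p = 0.0174). That drop counts reads over all exons, so it checks the labels only in part, and the call was lost with the neutrophil covariate described below (-0.21, adjusted p = 0.237) and without KO_340 or KO_345 (adjusted p = 0.0557 and 0.0541). Kit itself was at 199 to 221 CPM in WT and 220.3 to 238 CPM in KO libraries. Of 13 mature neutrophil markers 5 rose and 0 fell, and their summed level was 12700 to 39590 CPM in WT and 47550 to 62150 CPM in KO libraries, with none at 0. Of 8 progenitor markers 2 rose and 1 fell, Mpo, which set most of their summed level (11740 to 15670 CPM in WT, 6365 to 7328 CPM in KO libraries). Megakaryocyte markers were at 34.8 to 51.1 CPM in WT and 84.1 to 117 CPM in KO libraries in sum, and 3 of 5 rose. The part of the progenitor and megakaryocyte markers in the results was not tested. The mean log2 CPM of the neutrophil markers was 10.2 in WT_341, nearer to the 10.4 to 10.8 of the KO libraries than to 8.53 in WT_343 or 9.41 in WT_344. WT_341 also lay apart from the other WT libraries on the second principal component, which held 23.1% of the variance. Sex was inferred from expression: a library was called female where Xist exceeded the sum of Ddx3y, Eif2s3y, Kdm5d and Uty in CPM, and male otherwise. By this rule WT_341 is the only male of the WT group, while KO_339 and KO_340 are the males of the KO group. Inferred sex was thus not balanced between the genotypes. In bulk samples fewer cells of a type and less RNA per cell cannot be told apart.

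Short stretches of promoter from 4 of the called genes show letters that recur upstream of the members, 2 with an E-box and 2 with an ETS-type motif. E-boxes are bound by factors such as MYC, and the second motif by ETS factors such as GABPA, which acts at many housekeeping promoters. The stretches are from RefSeq on GRCm38.p6, are written 5′ to 3′ on the strand of the gene, and carry the motif in capitals. The motif begins 120, 43, 33 and 68 bases before a RefSeq start in the order shown. Prpf3 has 2 RefSeq starts, and its motif lies before one of them and after the other, inside the gene as GENCODE draws it.
Prpf3, higher in KO (chr3:95855843-95855898, reverse strand): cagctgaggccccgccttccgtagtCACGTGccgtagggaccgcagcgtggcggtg
Prpf39, higher in KO (chr12:65036266-65036321, forward strand): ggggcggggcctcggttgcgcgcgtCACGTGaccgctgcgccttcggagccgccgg
Snrnp200, higher in KO (chr2:127208328-127208384, forward strand): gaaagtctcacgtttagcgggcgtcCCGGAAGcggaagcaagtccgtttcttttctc
Prpf19, lower in KO (chr19:10895138-10895194, forward strand): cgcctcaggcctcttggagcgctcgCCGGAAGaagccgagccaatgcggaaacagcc
RefSeq windows from 250 bases before to 50 bases after a start were at hand for 65 of the 75 genes (86 windows). CCGGAAG, read on both strands, was present in 31.4% of these windows, in 15.3% of the windows of all tested genes and in 8.86% of all windows in the table. CACGTG was present in 12.8%, 9.24% and 7.15% of the same sets, and the longer Kaiso motif in 1.16%, 0.863% and 0.466%. Each motif was carried both by genes that rose and by genes that fell. The ETS-type motif is shown above for Snrnp200 and Prpf19. The E-box, shown above only for genes that rose, also lay in windows of Snrpa and Hnrnpm, which were lower in KO. A window of Prpf3 held an ETS-type motif as well as the E-box. The windows of Prpf8 and Prpf31 held neither motif, and a match is a string of letters, not a measured binding site.

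**Figure D1:**
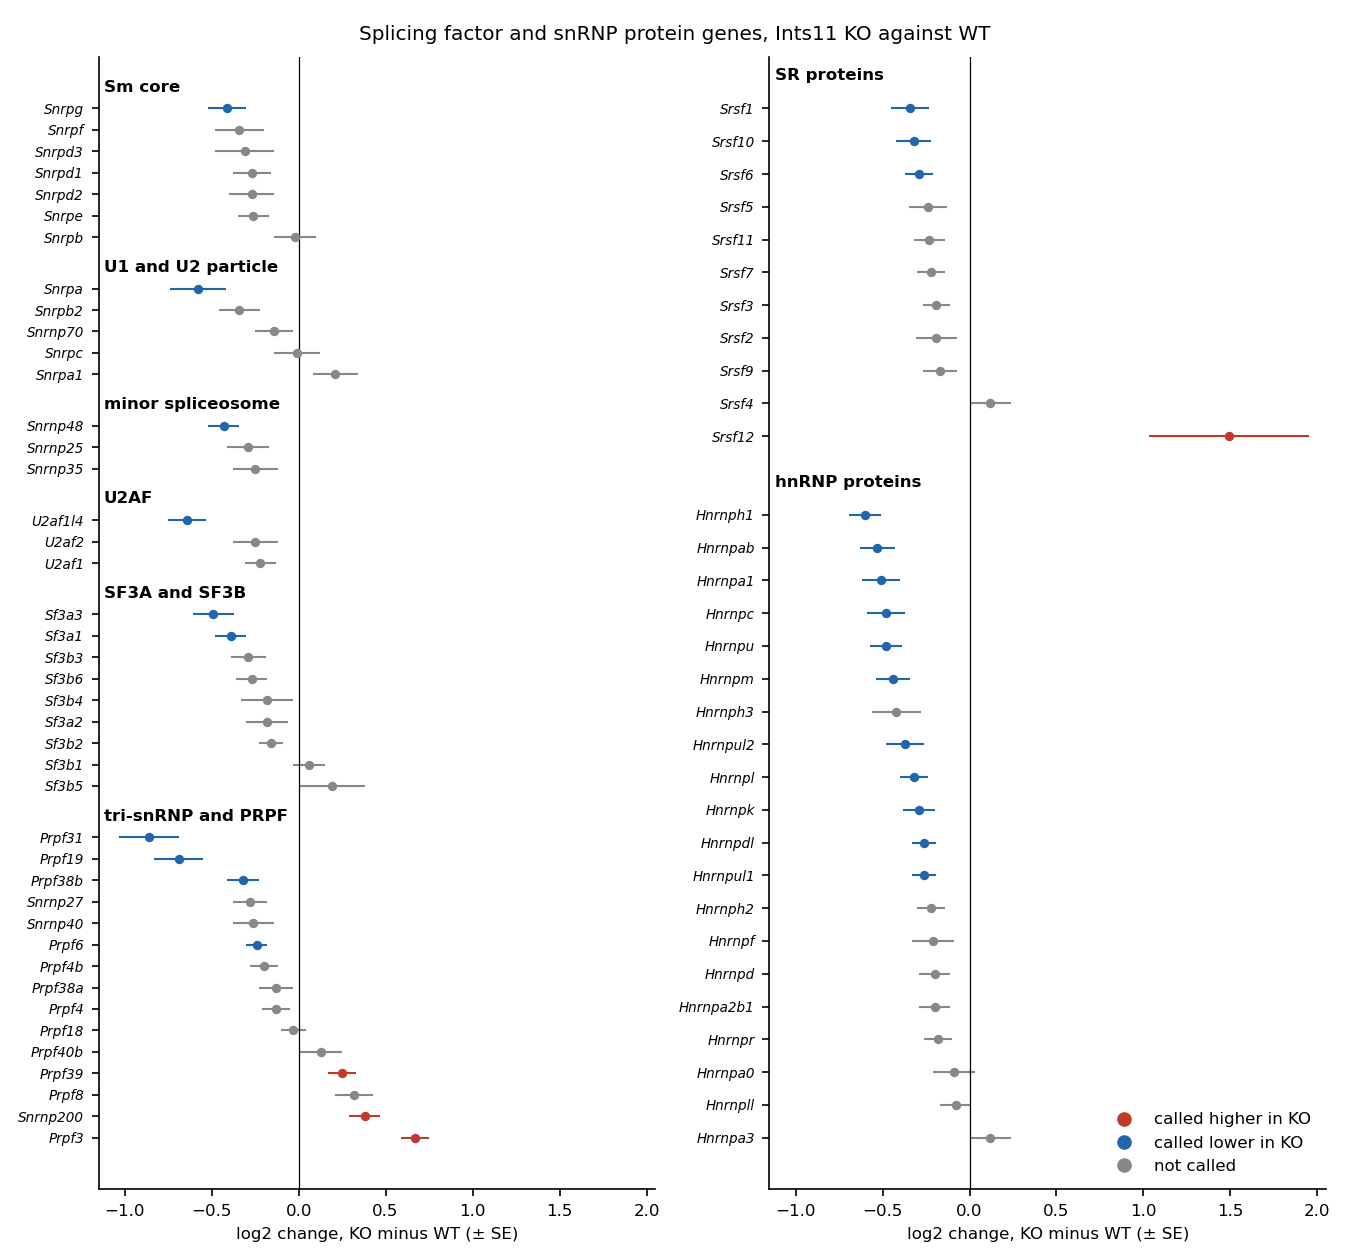
Log2 change between KO and WT libraries (x axis, point ± SE of the fit) for 73 of the 74 tested genes, grouped by role (y axis), with genes called higher in red, called lower in blue and not called in grey. Points left of 0 number 62 of the 73 drawn, and the red points are Prpf3, Snrnp200, Prpf39 and Srsf12.

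Of the 74 tested genes, 25 fell (33.8%) and 4 rose (5.41%), against 19.9% lower and 16.0% higher among all tested genes. These genes are strongly expressed, 56 of them at 50 CPM or more on average, and the balance of directions changed with level in the whole table. Among the 4617 tested genes with such a mean, 36.2% were lower and 8.56% higher, and among the 56 strongly expressed members 20 were lower (35.7%) and 3 higher (5.36%). The median log2 change was -0.25 over the members, -0.17 over all genes of at least 50 CPM and 0.01 over all tested genes. Log2 changes were below 0 for 63 of the 74. The KO libraries lay entirely below the WT libraries for 47 members and entirely above them for 5. For all tested genes these shares were 28.4% and 25.6%, and for genes of at least 50 CPM 48.0% and 13.7%. Summed over the 75 genes, the level was 15370, 17900 and 16280 CPM in WT_341, WT_343 and WT_344 and 14100, 14500 and 14050 CPM in KO_339, KO_340 and KO_345. Every KO library was thus below every WT library in the sum, with a smaller spread among KO (SD 246) than among WT libraries (SD 1283).

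**Figure D2:**
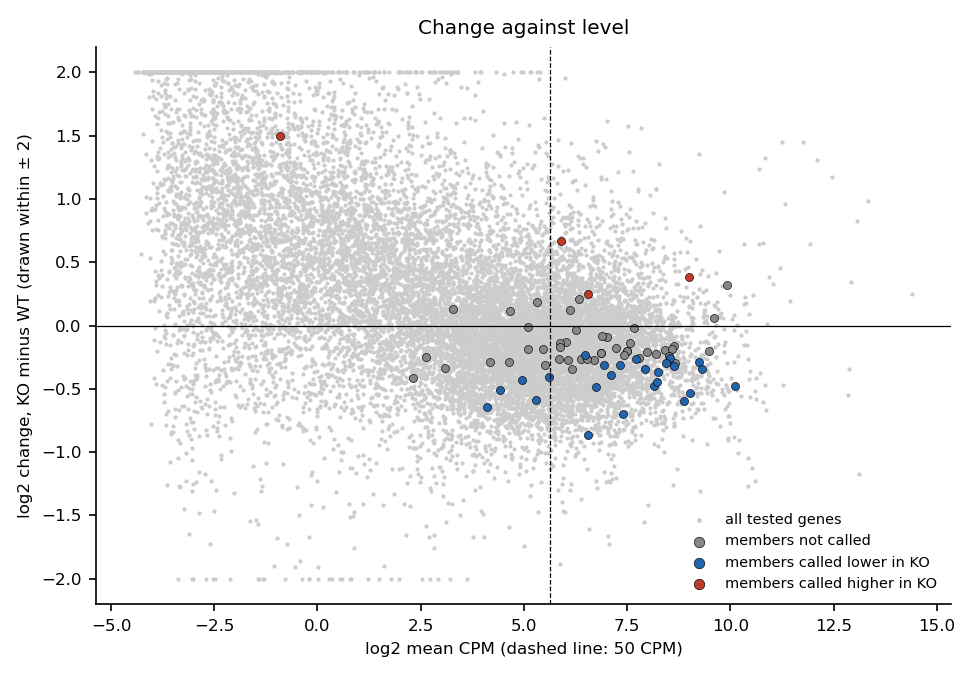
Log2 change (y axis, values beyond ± 2 drawn at the edge) against the log2 of the mean CPM (x axis) for all tested genes in grey, with the 74 splicing genes in colour by call. Most members lie right of the dashed line at 50 CPM, where the cloud of all genes also sits below 0 (median -0.17), and Srsf12 is the only red point far to the left.

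Scaling and single libraries moved these counts. Upper-quartile factors raised the median of all tested genes from 0.01 to 0.15 (0.11 with library totals only) and the share of all calls that were higher from 44.5% to 64.2% (58.8%). With them 11 members (14.9%) were lower, against 12.3% of all genes and 21.8% of those of at least 50 CPM. Without WT_341, the lowest WT library for 59 of the 74 members, 50 were lower (67.6%, against 26.6% and 47.6%) and 3 were higher. With the mature neutrophil level of each library as a covariate, 1 member was lower (1.35%, against 5.0% and 8.82%) and 4 were higher. That covariate was higher in every KO than in every WT library and so overlaps with genotype. Without KO_339, 6 were lower (8.11%, against 7.95% and 15.3%). With sex as a covariate 22 were lower (29.7%, against 17.3% and 30.2%), and the calls of Srsf1, Srsf10, Hnrnpk, Hnrnpul2 and Prpf39 were lost. Of the 25 members that fell, 6 kept the call whichever of the 6 libraries was left out: Hnrnph1, Hnrnpu, Hnrnpab, Prpf31, Prpf19 and U2af1l4. The other 19 lost it without at least 1 library. Of the 4 that rose, Prpf3 did.

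The tri-snRNP, in which the U4/U6 pair and U5 meet, held both the largest drop of the members and the rise with the smallest adjusted p. Prpf3, which encodes a U4/U6 protein (chromosome 3, 95830124 to 95855885, reverse strand, GRCm38), stood at 44.3, 46.8 and 46.6 CPM in WT_341, WT_343 and WT_344 and at 69.0, 71.5 and 78.1 CPM in KO_339, KO_340 and KO_345. The groups did not overlap and the WT values were nearly equal, so that the rise of 1.59-fold (log2 0.67 ± 0.08 SE) exceeded the spread between mice. Its adjusted p was 0.00306 in edgeR's test, and it was called higher under all 15 alternatives (log2 0.63 to 0.80).

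Snrnp200, the U5 helicase BRR2 that unwinds U4 from U6 (chromosome 2, 127208386 to 127240451, forward strand), rose from 408, 478 and 452 to 556, 609.9 and 576 CPM. All 3 KO values were above all 3 WT values (log2 change 0.38 ± 0.09 SE, adjusted p = 0.0176 in edgeR's test). It was called higher under all alternatives but 1, being lost without WT_344 (adjusted p = 0.0606). Prpf8, the scaffold of the spliceosome's active site in U5 (chromosome 11, 75486816 to 75509449, forward strand), had the highest level per kilobase of exon in this class, at 115 ± 14.2 CPM per kilobase in WT and 143 ± 7.85 in KO libraries. Its values of 742, 951 and 876 CPM in WT and 1029, 1138 and 1046 CPM in KO libraries did not overlap either. The log2 change of 0.32 ± 0.11 (SE) missed the threshold in edgeR's test (adjusted p = 0.0598), and it passed under 9 of 15 alternatives, among them upper-quartile scaling (0.46, adjusted p = 0.0145) and the neutrophil covariate (0.59, adjusted p = 0.0244).

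Other genes of the same particles fell or were not called. Prpf31, which binds the U4 snRNA and is mutated in a dominant form of retinitis pigmentosa (chromosome 7, 3629985 to 3642486, forward strand), showed the largest drop of all members, from 93.0, 153 and 117 CPM to 63.7, 66.7 and 69.4 CPM. Its log2 change was -0.86 ± 0.17 (SE, adjusted p = 0.00999 in edgeR's test), and the WT libraries were more spread than the KO libraries. With the neutrophil covariate the change was -0.32 (adjusted p = 0.0514). Of its exon bases 18.1% lie under exons of another gene on the opposite strand. Prpf6, a U5 protein that bridges to U4/U6, fell more modestly, from 95.1, 98.7 and 95.2 CPM to 80.1, 82.8 and 82.5 CPM (log2 change -0.24 ± 0.06, adjusted p = 0.0257). Snrnp40, a WD-repeat protein of U5, was at 90.7 ± 14.3 CPM in WT and 75.6 ± 3.99 CPM in KO libraries, and Prpf4, the partner of PRPF3 in U4/U6, at 61.7 ± 4.22 and 56.2 ± 0.344 CPM; neither passed (adjusted p = 0.120 and 0.196). Prpf3 and Prpf31, both of U4/U6, thus moved in opposite directions, as the plot of single libraries shows.

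**Figure D3:**
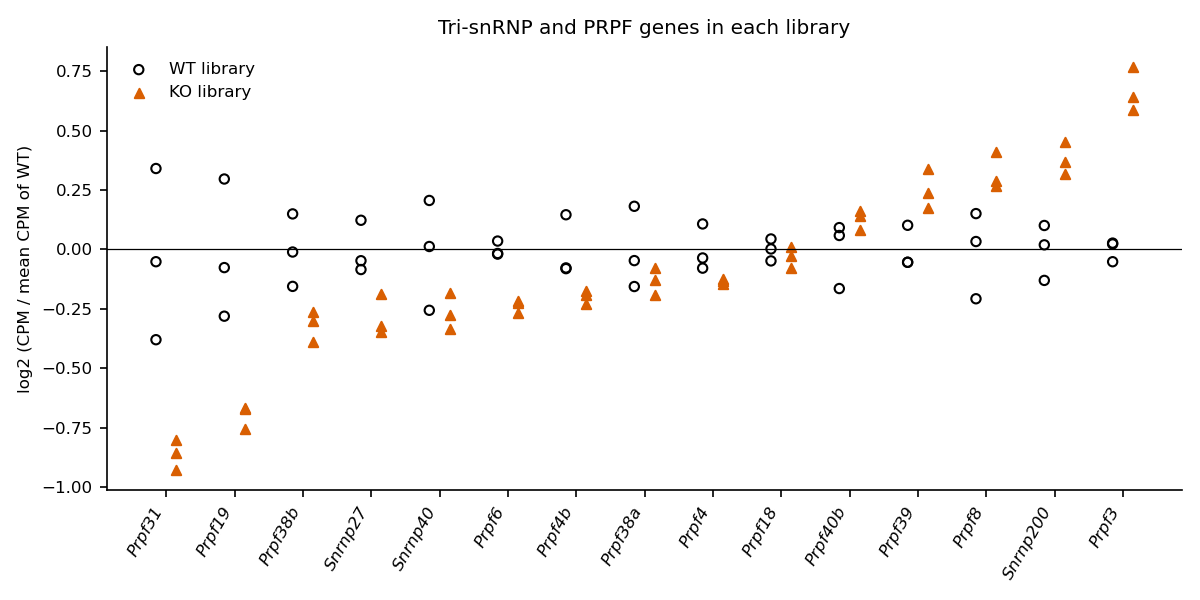
Level of 15 of the 16 tri-snRNP and PRPF genes in each library as log2 of CPM over the mean CPM of WT (y axis), with WT libraries as open circles and KO libraries as triangles, ordered by log2 change. Prpf31 and Prpf19 at the left and Prpf39, Prpf8, Snrnp200 and Prpf3 at the right have groups that do not overlap, in opposite directions.

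The remaining PRPF genes act before or after the tri-snRNP. Prpf19, the ubiquitin ligase of the complex that activates the spliceosome (chromosome 19, 10895231 to 10909559, forward strand), fell from 171, 255 and 197 CPM to 131, 131 and 123 CPM (log2 change -0.69 ± 0.14 SE, adjusted p = 0.0111). As for Prpf31, the WT_341 value was the lowest of the WT group, and the call was lost with the neutrophil covariate (-0.28, adjusted p = 0.117). Prpf39, which is tied to U1 at the 5′ splice site, rose from 86.3 ± 5.47 to 103 ± 5.93 CPM. This rise was small (log2 0.25 ± 0.08, adjusted p = 0.0433 in edgeR's test) and was lost under 7 of 15 alternatives. Prpf38b also fell (log2 change -0.32 ± 0.09, adjusted p = 0.0333). In all, 5 of the 16 fell (31.2%, against 36.2% of genes of at least 50 CPM and 19.9% of all tested genes). Another 3 rose (18.8%, against 8.56% and 16.0%) and 8 were not called. The median log2 change was -0.17, the same as over genes of at least 50 CPM, and it was -0.03 with upper-quartile factors.

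The Sm ring is made of SNRPB (or its close relative SNRPN), SNRPD1, SNRPD2, SNRPD3, SNRPE, SNRPF and SNRPG, and all of the particles here but U6 carry it. Of the 7 tested Sm genes 1 fell (14.3%, against 36.2% of genes of at least 50 CPM and 19.9% of all tested genes). None rose (against 8.56% and 16.0%). All 7 log2 changes were below 0, as were those of 3231 of the 4617 genes of at least 50 CPM. The median over the Sm genes was -0.27, and under upper-quartile factors it was -0.13 with 6 below 0. Snrpg fell from 50.1, 64.2 and 53.2 CPM to 43.4, 43.5 and 39.45 CPM (log2 change -0.41 ± 0.11 SE, adjusted p = 0.0259), with groups that did not overlap, and lost the call without WT_344, KO_339, KO_340 or KO_345, with upper-quartile factors (-0.27, adjusted p = 0.0626) and with the neutrophil covariate (-0.16, adjusted p = 0.375). Snrpe just missed the threshold (log2 change -0.26 ± 0.09, adjusted p = 0.0508). Snrpb was at 163, 220 and 226 CPM in WT and 203, 201 and 198 CPM in KO libraries, with overlapping groups (log2 change -0.02 ± 0.12, adjusted p = 0.922); the difference between Snrpb and the other Sm genes was not tested. Without WT_341, 6 of the 7 were lower (85.7%, against 47.6% of genes of at least 50 CPM and 26.6% of all tested genes). Per kilobase of merged exon in WT libraries the order ran from Snrpb (103 ± 17.5 CPM per kilobase) over Snrpe (73.6 ± 7.66) and Snrpd1 (55.2 ± 7.86) to Snrpg (35.6 ± 4.72), Snrpd2 (24.1 ± 4.22), Snrpd3 (14.7 ± 2.59) and Snrpf (11.05 ± 1.59). Exons of other genes on the opposite strand cover 85.4% of the exon bases of Snrpf, and whether this bears on its low level was not tested. Snrpn shares 27.3% of its exon bases with exons of another gene on the same strand, and whether that bears on its counts of 0 was not tested.

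Among proteins particular to U1 and U2, 1 of 5 fell and 0 rose. The share that fell was 36.2% among genes of at least 50 CPM and 19.9% among all tested genes. The share that rose was 8.56% and 16.0% in the same sets. Snrpa, which encodes a U1 protein that binds a stem-loop of the snRNA, fell from 35.9, 54.0 and 52.4 CPM to 29.7, 32.9 and 32.2 CPM (log2 change -0.58 ± 0.16 SE, adjusted p = 0.0260), a call that was lost when any single library other than WT_341 was left out and with the neutrophil covariate. The other U1 proteins were called in neither direction. Snrnp70 was at 198 ± 28.4 and 180.3 ± 11.5 CPM and Snrpc at 34.4 ± 4.96 and 34.0 ± 3.43 CPM. The U2 proteins Snrpb2 and Snrpa1 bind the snRNA as a pair, and their log2 changes had opposite signs: -0.34 ± 0.12 (adjusted p = 0.0632) for Snrpb2 and 0.21 ± 0.13 (adjusted p = 0.235) for Snrpa1, neither of which passed. Snrpa1 was called higher with upper-quartile factors (0.35, adjusted p = 0.0485), with the neutrophil covariate (0.58, adjusted p = 0.0285) and without WT_343.

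The 3 minor spliceosome genes encode proteins of the U11/U12 particle, which removes the rare introns of the U12 type. Snrnp48 fell from 36.7, 37.4 and 33.2 CPM to 26.8, 27.9 and 24.9 CPM (log2 change -0.43 ± 0.09 SE, adjusted p = 0.0128), and the call was lost without KO_339 or KO_345 and with the neutrophil covariate. Snrnp25 was at 19.8 ± 2.70 and 16.2 ± 0.498 CPM and Snrnp35 at 6.68 ± 0.483 and 5.61 ± 0.162 CPM, with adjusted p-values of 0.0902 and 0.153. For all 3 genes the KO libraries lay below the WT libraries, as they did for 28.4% of all tested genes and 48.0% of those of at least 50 CPM. A list of 9 other minor spliceosome genes, such as Zrsr1, Armc7, Rnpc3 and Scnm1, was described beside them: none was called by edgeR's test, 1 had an unadjusted p below 0.05, 4 of 9 log2 changes were below 0 and the median was 0.04. That 1 was Armc7, on the other side from the members (log2 0.40 ± 0.14, adjusted p = 0.0581 in edgeR's test). It was called higher under 6 of 15 alternatives, among them DESeq2 (adjusted p = 0.0316) and limma-voom, and had a log2 change of 0.04 with the neutrophil covariate.

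U2AF and SF3 proteins recognise the 3′ splice site and the branch point. U2af1l4, a shorter relative of the U2AF small subunit, fell from 19.7, 22.8 and 20.1 CPM to 14.5, 13.1 and 12.5 CPM (log2 change -0.64 ± 0.11 SE, adjusted p = 0.00619). Exons of other genes on the same strand cover 65.6% of its exon bases, and how reads in shared exons were assigned is not known. The main small subunit gene U2af1 (125 ± 14.7 and 107 ± 0.602 CPM) and the large subunit gene U2af2 (241 ± 42.4 and 202 ± 2.08 CPM) were not called. In SF3A, Sf3a1 (156 ± 16.6 to 119 ± 6.36 CPM, adjusted p = 0.0196) and Sf3a3 (125 ± 21.4 to 89.2 ± 2.53 CPM, adjusted p = 0.0203) fell, while Sf3a2 (47.0 ± 5.24 and 41.4 ± 4.29 CPM) was not called. By edgeR's test 1 of 3 U2AF genes (33.3%) and 2 of 9 SF3A and SF3B genes (22.2%) fell. Among genes of at least 50 CPM 36.2% fell, and among all tested genes 19.9%. None of either class rose (against 8.56% and 16.0%). None of the 6 SF3B genes was called by edgeR's test or limma-voom, and 2 had an unadjusted p below 0.05 in edgeR's test. DESeq2 called 3 lower (Sf3b2, Sf3b3 and Sf3b6), as it did 39.5% of genes of at least 50 CPM and 22.9% of all tested genes. Sf3b1, which binds the branch point and is often mutated in myelodysplastic syndromes, was at 722, 815 and 751 CPM in WT and 817, 802 and 769 CPM in KO libraries (log2 change 0.06 ± 0.09, adjusted p = 0.585). Sf3b3 had a log2 change of -0.29 ± 0.10 (adjusted p = 0.0632) and Sf3b6 one of -0.27 ± 0.09 (adjusted p = 0.0542).

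SR proteins bind exonic enhancers through RNA recognition motifs and contact other factors through tails rich in arginine and serine. Of 11 genes 3 fell (27.3%, against 36.2% of genes of at least 50 CPM and 19.9% of all) and 1 rose (9.09%, against 8.56% and 16.0%). The count that fell was 0 without WT_344 or any 1 KO library, fits in which 15.3% to 21.0% of genes of at least 50 CPM fell. It was 1 without WT_343 (9.09%, against 29.5%). It was 7 without WT_341 (63.6%, against 47.6% of genes of at least 50 CPM in that fit). In the fit to all libraries 9 log2 changes were below 0 (median -0.22). With upper-quartile factors the median was -0.09 and none was lower, against 21.8% of genes of at least 50 CPM. Srsf6 fell from 359, 414 and 369 CPM to 309, 313 and 309 CPM (log2 change -0.29 ± 0.08 SE, adjusted p = 0.0272). Srsf1, the classical SR protein, went from 622, 814 and 681 CPM to 561, 570.5 and 540 CPM (-0.34 ± 0.11, adjusted p = 0.0490), and Srsf10 from 179 ± 22.5 to 144 ± 3.11 CPM (-0.32 ± 0.10, adjusted p = 0.0397). The calls of Srsf1 and Srsf10 were each lost under 10 of 15 alternatives. Srsf2, which is mutated in myeloid cancers, was at 364 ± 49.6 and 319 ± 26.8 CPM (adjusted p = 0.238), and Srsf3, Srsf5, Srsf7 and Srsf11 had log2 changes of -0.19 to -0.24 with adjusted p-values of 0.0721 to 0.116.

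Srsf12 stood apart in level and direction. It rose from 0.105, 0.329 and 0.392 CPM to 0.864, 0.698 and 0.787 CPM, a fitted 2.82-fold (log2 1.49 ± 0.46 SE, adjusted p = 0.0387 in edgeR's test). The groups did not overlap, but the gene had as few as 13 reads in WT_341, and the call was lost with the neutrophil covariate and when any library other than WT_341 was left out.

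The hnRNP class held the most genes that fell. hnRNPs coat nascent transcripts and many act as splicing repressors. Of 20 genes, 11 fell (55.0%, against 36.2% of all genes of at least 50 CPM and 19.9% of all tested genes). By edgeR, DESeq2 or limma-voom 0 rose. The KO libraries lay below the WT libraries for 16 (against 48.0% of genes of at least 50 CPM). The median log2 change was -0.27. With upper-quartile factors 5 of the 20 were lower, with a class median of -0.14 (against 21.8% of genes of at least 50 CPM lower). With library totals only 7 were lower (against 25.2%). With the neutrophil covariate 1 was, with a class median of -0.21 (against 8.82%). Leaving out 1 library gave 3 lower without KO_339 (against 15.3%) to 15 without WT_341 (against 47.6%), so the class was above that share in some fits and near or below it in others; the difference between this class and other genes was not tested.

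Hnrnph1, which binds runs of guanines (chromosome 11, 50376990 to 50386528, forward strand), fell from 613, 571 and 525 CPM to 385, 389 and 355 CPM (log2 change -0.60 ± 0.09 SE, adjusted p = 0.00485). The WT library with the highest neutrophil level, WT_341, had the highest value here, not the lowest. This drop passed under all 15 alternatives (log2 -0.67 to -0.46) and was the only one among the members that passed with the neutrophil covariate (-0.67, adjusted p = 0.0235). Hnrnpu, a scaffold protein with the highest counts of all members, fell from 1210, 1375 and 1257 CPM to 917, 928 and 909 CPM (-0.48 ± 0.09, adjusted p = 0.00845). Hnrnpab, a relative of the A and B type hnRNPs with the highest level per kilobase of all members (222 ± 25.7 CPM per kilobase in WT, 154 ± 0.969 in KO), fell from 553, 695 and 605 CPM to 426, 427 and 431 CPM (-0.53 ± 0.10, adjusted p = 0.00893). In both genes the 3 KO values were nearly equal and below every WT value. With the neutrophil covariate they missed the threshold, Hnrnpu at -0.35 (adjusted p = 0.0532) and Hnrnpab at -0.30 (adjusted p = 0.0703). Of the 75-base stretches in Hnrnpab transcripts 20.9% also occur, on either strand, in annotated transcripts of 1 other gene. Exons on the opposite strand cover 29.1% of its exon bases, and whether this bears on its level was not tested.

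Hnrnpc, which guards against the use of splice sites in Alu-type repeats in human cells, fell from 329 ± 48.9 to 237 ± 11.2 CPM, Hnrnpm from 346 ± 41.3 to 255 ± 6.08 CPM and Hnrnpl, a binder of CA repeats, from 439 ± 25.7 to 351 ± 8.10 CPM, with adjusted p-values of 0.0150 to 0.0186. Hnrnpa1 fell from 28.2, 25.1 and 22.0 CPM to 17.1, 18.7 and 17.2 CPM (log2 change -0.51 ± 0.11, adjusted p = 0.0152). Its level was far below that of Hnrnpa2b1 (770.1 ± 63.1 and 669 ± 28.6 CPM, adjusted p = 0.122). Of the 75-base stretches in Hnrnpa1 transcripts 27.0% also occur in annotated transcripts of 14 other genes, against none for Hnrnpa2b1, and how such reads were counted is not known. Hnrnpul2, Hnrnpdl, Hnrnpul1 and Hnrnpk also fell, by 0.37, 0.26, 0.26 and 0.29 on the log2 scale. In that order their adjusted p-values in edgeR's test were 0.0397, 0.0303, 0.0264 and 0.0495. The first 3 kept the call under 7 of 15 alternatives each, and Hnrnpk under 5. Hnrnpa0 (132 ± 20.3 and 124 ± 9.67 CPM), Hnrnpll (123 ± 10.7 and 116 ± 9.48 CPM) and Hnrnpa3 (66.6 ± 7.81 and 72.6 ± 7.79 CPM) had overlapping groups and were not called.

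**Figure D4:**
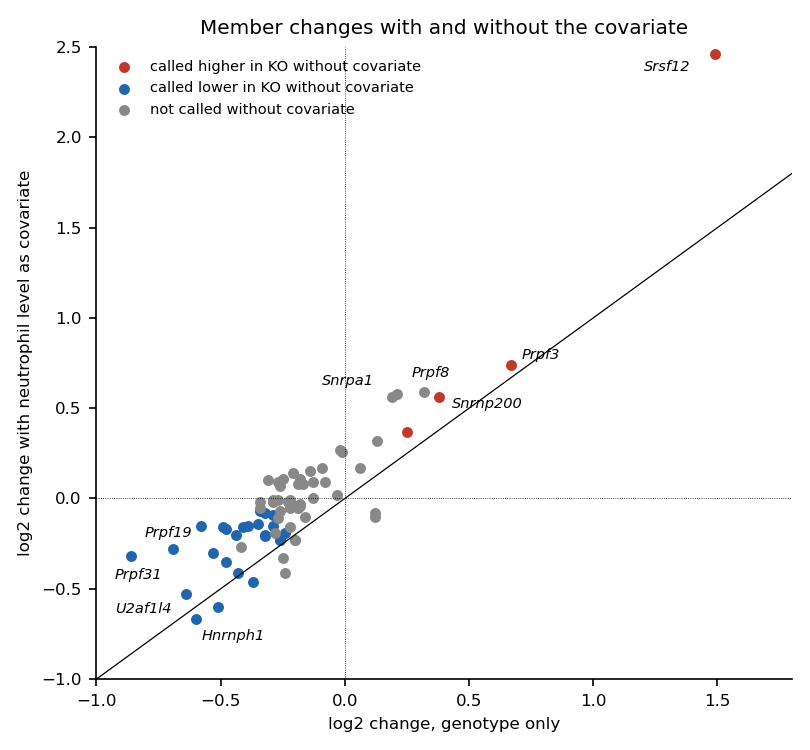
Log2 change of each of the 74 genes with genotype alone (x axis) and with the mature neutrophil level of each library as a covariate (y axis), coloured by the call without the covariate; the line marks equal values. Prpf3 (0.67) and Hnrnph1 (-0.60) stay near the line, Prpf8 and Snrpa1 lie above it, and Prpf31 and Prpf19 move toward 0.

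Related genes were compared through the log2 ratio of their levels within each library, which no scaling factor affects. Of 11 pairs listed, 10 had both members tested, and the ratio differed without overlap between genotypes in 7 of them, each with p = 0.10 in an exact two-sided permutation test over 20 assignments, the smallest p the design allows (adjusted p = 0.143 over the 10 pairs). No pair could therefore pass the threshold. The share of other gene pairs with groups apart was not computed, so the count of 7 has no background. For single genes the groups lay apart with KO lower in 28.4% and with KO higher in 25.6% of all tested genes. The log2 ratio of U2af1 to its relative U2af1l4 went from 2.58 ± 0.05 in WT to 3.01 ± 0.11 in KO libraries, that of Hnrnph1 to Hnrnph2 from 2.17 ± 0.20 to 1.79 ± 0.07, that of Hnrnpl to Hnrnpll from 1.84 ± 0.04 to 1.59 ± 0.14, and that of Hnrnpa1 to Hnrnpa2b1 from -4.94 ± 0.07 to -5.25 ± 0.05. The ratio of Srsf4 to Srsf6 went from -3.97 ± 0.31 to -3.55 ± 0.09, and that of Prpf38a to Prpf38b from -1.01 ± 0.13 to -0.83 ± 0.08, where WT_344 and KO_340 were both at -0.90 after rounding. Srsf2 and Srsf3 had the same mean ratio in both groups (-0.17 ± 0.14 and -0.17 ± 0.13), and Hnrnpd and Hnrnpdl overlapped as well.

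**Figure D5:**
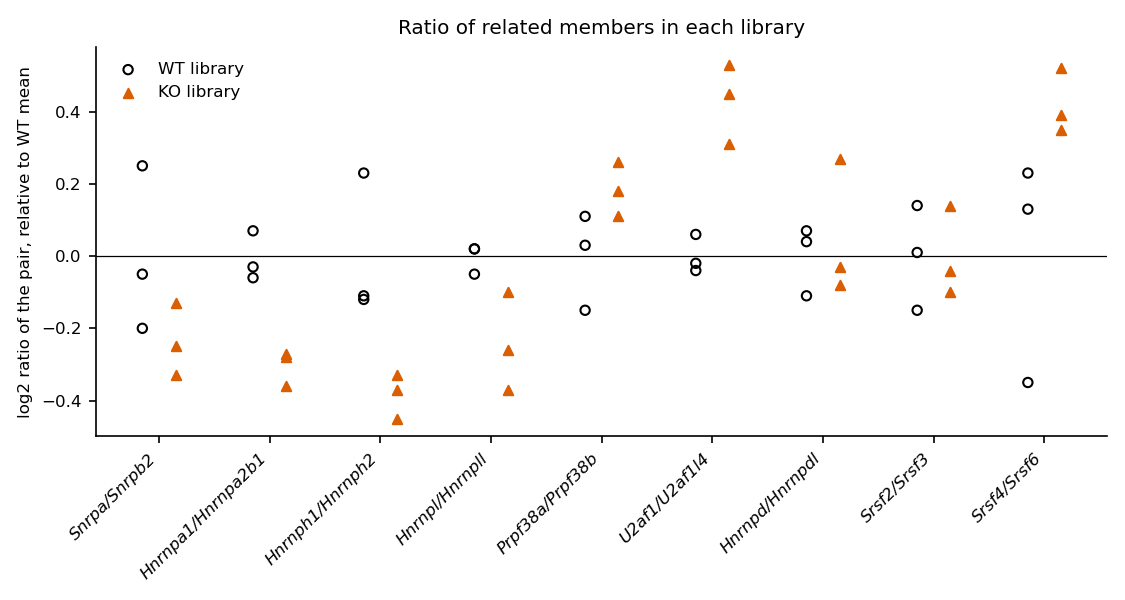
Log2 ratio of the 2 genes of each pair in each library, relative to the mean of the WT libraries (y axis), for 9 of the 10 tested pairs (x axis), with WT libraries as open circles and KO libraries as triangles. The groups are apart in 6 of these pairs and overlap for Snrpa/Snrpb2, Hnrnpd/Hnrnpdl and Srsf2/Srsf3.

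Other genes of the pathway, from a list of 112 tested genes that the symbol rule does not cover, are given beside them: 39 fell (34.8%, against 36.2% of genes of at least 50 CPM and 19.9% of all tested genes), 1 rose and the median log2 change was -0.22. The subgroup counts that follow are of few genes and are read against the same shares. Of the LSm genes, most of whose products form rings on the U6 snRNA or on messenger RNA in decay, 5 of 10 fell, among them Lsm7 (19.5 ± 3.98 to 10.8 ± 0.749 CPM) and Lsm4 (55.1 ± 6.99 to 38.95 ± 0.378 CPM). Of the early recognition factors 6 of 11 fell, with Dnajc8 (log2 change -0.72 ± 0.10) and Rbm10 (-0.56 ± 0.09) at the front. Of the helicases 5 of 11 fell, including Ddx39b (-0.61 ± 0.07) and Ddx42 (-0.56 ± 0.07). In the tri-snRNP list 2 of 8 fell, Ppih (-0.56 ± 0.13) and Eftud2 (-0.45 ± 0.11), the GTPase partner of PRPF8 and SNRNP200 in U5, which thus went the other way from Snrnp200. The Prp19 complex gene Bcas2 fell from 62.8 ± 7.03 to 37.6 ± 0.0934 CPM. The regulators Nono (361 ± 29.5 to 238 ± 4.64 CPM) and Sfpq (639 ± 6.49 to 462 ± 15.1 CPM), which form dimers with each other, fell, while Rbfox2 was the gene that rose (1.71 ± 0.274 to 2.60 ± 0.209 CPM). Srpk1, a kinase that phosphorylates SR proteins, showed the largest drop of this list, from 163, 225 and 180.2 CPM to 98.4, 99.7 and 102 CPM (log2 change -0.92 ± 0.12), beside a second SR kinase, Clk2 (-0.37 ± 0.07). By edgeR's test the genes named here that were called had adjusted p-values from 0.00327 to 0.0454.

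The members lie on 18 chromosomes. An annotated snRNA gene lies within the span of 1 of 75, Hnrnpll, and within 10000 bases of 1 more, Prpf6 (6646 bases away). The median distance was 352792 bases, and distances for other genes were not computed. Prpf6 fell (log2 change -0.24 ± 0.06, adjusted p = 0.0257 in edgeR's test). Hnrnpll was not called (-0.08 ± 0.09, adjusted p = 0.525). Of the 74 tested genes 16 share over 10% of their 75-base stretches with annotated transcripts of other genes, and 7 of the 25 genes that fell are among them. The counts of these genes may be less certain, since shared reads may have been split or dropped. Stretches were compared on both strands, so overlap with genes on the opposite strand is included. Whether such overlap affected the counts depends on the strand setting, which is not known.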

How the data were processed

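RNA of 6 mice was sequenced as strand-specific messenger RNA libraries with paired reads of 75 bp, per the labels' protocols. The deposited table holds raw read counts per gene symbol that the authors did not normalize. Per the submitters' processing notes, FastQC, Trimmomatic, STAR and HTSeq were used, on mm10. The sources used here do not give the annotation, the strand setting or the treatment of reads with several positions.

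Counts were fitted in edgeR 4.0.16 (R 4.3.3) with filterByExpr (minimum count 10, minimum total 15), TMM factors, robust glmQLFit and glmQLFTest for genotype over all 15742 genes that passed, with a threshold of 0.05. The SE is the log2 change over the square root of F. The procedure was tested on simulated data. Library totals were at least 124074531 counts. P-values measure the spread between 3 mice a group. No 2 libraries agreed within counting noise (chi-square per degree of freedom at least 58.0). No mouse number occurs in both genotypes.

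Positions, exon lengths (all annotated exons merged) and shared stretches come from GENCODE M21 (GRCm38, the same assembly as mm10), where all 75 symbols were found. Shared stretches were compared on both strands. Promoters come from RefSeq. Genes were named by this rule: up to 4 tested genes per role class with the smallest adjusted p (8 for SR and hnRNP genes), all minor spliceosome genes, genes called higher, the listed pairs and up to 2 genes per subgroup of the pathway list; Prpf8, Snrpd2, Snrpd3, Sf3b1, Prpf6, Snrnp40, Prpf4, Sf3a2, Snrpc, Hnrnpul2, Hnrnpk, Hnrnpa0, Hnrnpa3, Rnpc3, Scnm1 and Rbfox2 were named after their values were seen. The values of 1 member that the rule names, and of its pair, are not reported here, though the counts include them. The members, lists, pairs and tests were chosen with earlier results of these data known. The neutrophil covariate is the mean log2 CPM (prior count 2) of 13 markers; Ly6g, Ahsp and Adgre1 were not used. The marker lists other than neutrophils gave, as higher and lower calls: progenitors 2 and 1 of 8, erythroid 0 and 1 of 6, T and NK cells 1 and 1 of 6, B cells 0 and 0 of 6, macrophages 1 and 0 of 6, stroma and endothelium 2 and 0 of 6, megakaryocytes 3 and 0 of 5. The 15 alternatives cover scaling, filters, DESeq2 1.42.0, limma-voom (limma 3.58.1), covariates and leaving out each library.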

Additional observations from a re-analysis of the deposited data

How the results depend on the processing

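The counts of called genes depended on scaling, on the neutrophil covariate and on single libraries. Members lower, 25 as reported, were 11 with upper-quartile factors, 16 with library totals only and 1 with the mature neutrophil covariate, and 6 to 50 when 1 library was left out (6 without KO_339, 9 without KO_340, 11 without KO_345, 11 without WT_344, 19 without WT_343 and 50 without WT_341). The share of genes of at least 50 CPM that were lower moved too. It was 36.2% as reported, 21.8% with upper-quartile factors, 25.2% with library totals only and 8.82% with the covariate. With 1 library left out it was 15.3% (KO_339), 19.8% (KO_340), 19.3% (KO_345), 21.0% (WT_344), 29.5% (WT_343) and 47.6% (WT_341). Members higher, 4 as reported, were 1 to 5 when 1 library was left out and 3 to 6 otherwise. Of genes of at least 50 CPM, 8.56% were higher as reported, 2.82% to 13.0% when 1 library was left out and 1.65% to 15.6% otherwise. Of the other pathway genes, 39 lower and 1 higher as reported, 25 were lower with upper-quartile factors, 11 with the covariate and 13 to 60 without 1 library. Those higher were 4 with upper-quartile factors, 4 with library totals only, 0 with no low-count filter, 4 with at least 1 CPM in 3 libraries, 3 with DESeq2, 2 with limma-voom and 0 to 4 without 1 library. These pathway counts are read against the same shares of genes of at least 50 CPM. Leaving out a library also lowers the number of samples; for the other shifts the cause was not tested. The 69 called members and pathway genes kept their sign in all 1034 values under the alternatives. These genes were picked by their calls on the same libraries that the alternatives refit, so the kept signs are not separate evidence. Of 764 values for 51 named members over the alternatives, 597 kept direction and call, 116 lost the call, 30 gained one and 21 changed sign without being called. Over 60 values of the pair ratios with 1 library left out, 53 kept their direction, and the 7 others belonged to Hnrnpd/Hnrnpdl and Srsf2/Srsf3. No paired analysis was possible because the genotypes share no replicate number. Among the tested members depth was lowest for Srsf12, with as few as 13 reads in 1 library.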
